A study of Mus musculus with 11 samples.

Results

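The small leucine-rich proteoglycans were followed through bulk RNA-seq of marrow stromal cells taken from mice after doxorubicin. The group was set by gene symbol as Dcn, Bgn, Lum, Fmod, Ogn, Omd, Prelp, Aspn and Podn. All 9 of 9 symbols were among the 24718 genes of the count table, and all 9 passed the filter on low counts that left 17838 genes for testing. The cells were tdTomato-positive cells sorted from digested bone marrow of female Lepr-Cre;LSL-tdTomato+/- mice, in which Cre under the leptin receptor gene switches on a red reporter, and they are labelled mesenchymal stem and progenitor cells. Doxorubicin is an anthracycline used in chemotherapy that damages DNA. The PBS group (n = 4) received 4 intravenous injections of saline buffer. The DOX1X group (n = 3) received 1 intravenous dose of doxorubicin at 10 mg/kg as young adults. The DOX4X group (n = 4) received 4 intravenous doses at 5 mg/kg, given 1 week apart, at 8 to 10 weeks of age. All groups carried the same genotype and were killed 8 weeks after treatment, and the age of the PBS mice is not given in the sources used here. The reporter marks every descendant of a cell in which Cre was once active, so the sort can hold bone-forming cells as well as stromal cells. The total dose and the number of injections differ together between the 2 doxorubicin groups.

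These proteins share a core of leucine-rich repeats and sit on or near collagen fibrils in the extracellular matrix, where they help to set fibril thickness and spacing. Decorin and biglycan carry chondroitin or dermatan sulfate chains and bind transforming growth factor beta, lumican, fibromodulin and osteoadherin carry keratan sulfate or sulfated tyrosines, and several members are made by cells of the bone lineage. In bone, biglycan is needed for normal bone mass in mice and osteoadherin binds hydroxyapatite, the bone mineral.

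The libraries held 29540422 to 42784036 counts each, and the 9 members together took 0.432% to 0.577% of the counts of a library. Lepr was at 3939 to 7661 CPM (counts scaled to library size, with TMM factors that correct for differences in RNA composition) in the libraries. Of 13 fibroblast and periosteum markers, Dpt and Pi16, markers of skin and connective tissue fibroblasts, were at 0.08 to 0.96 and 0.53 to 3.16 CPM. The other markers of that list were not all low, as the 13 summed to 562 to 1098 CPM in PBS, 588 to 735 in DOX1X and 469 to 590 in DOX4X. The library called PBS 4 here has a title that begins with the abbreviation for doxorubicin, while its treatment label and its library name are those of the controls. It was kept in the PBS group, and the values without it are given beside the results. All 4 PBS libraries and DOX1X 1 and 2 came from 1 flow cell, and DOX1X 3 and all 4 DOX4X libraries from another, per the file headers, so flow cell and the DOX4X treatment cannot be told apart by comparing DOX4X with PBS directly. In bulk samples such as these, fewer cells of a type and less RNA per cell cannot be told apart.

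Several members lie next to each other in the genome. In the order of RefSeq genes, Lum directly follows Dcn, Aspn, Omd and Ogn follow one another, and Fmod directly follows Prelp, with Optc, the gene of opticin, on the other side of Prelp. The RefSeq promoter table (build GRCm38.p6) has entries for 7 of the 9 members, and Dcn and Lum were not matched. The 250 bases before the start are printed below for 5 members: for Prelp and Podn because their levels had the highest correlation among the 9 over the 11 libraries, group differences included, and for the neighbours Aspn, Omd and Ogn to set adjacent genes side by side. Capitals mark 4 of the motifs searched on both strands, the GC box GGGCGG, the TATA box TATAAA, the TEAD site GGAATG and the RUNX site TGTGGT. The sequences run 5′ to 3′ on the gene's strand, minus for Prelp and Podn and plus for the others.
Prelp, chr1:133921402-133921651: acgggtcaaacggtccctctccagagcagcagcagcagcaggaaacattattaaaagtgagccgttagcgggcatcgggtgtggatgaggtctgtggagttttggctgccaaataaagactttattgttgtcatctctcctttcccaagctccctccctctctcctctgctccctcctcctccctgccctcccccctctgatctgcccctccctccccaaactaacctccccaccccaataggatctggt
Podn, chr4:108031955-108032204: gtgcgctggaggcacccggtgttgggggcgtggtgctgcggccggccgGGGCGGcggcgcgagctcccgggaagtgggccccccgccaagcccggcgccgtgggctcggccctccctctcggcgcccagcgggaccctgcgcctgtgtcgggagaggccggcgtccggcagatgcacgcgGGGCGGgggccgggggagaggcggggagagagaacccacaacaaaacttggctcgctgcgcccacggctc
Aspn, chr13:49544193-49544442: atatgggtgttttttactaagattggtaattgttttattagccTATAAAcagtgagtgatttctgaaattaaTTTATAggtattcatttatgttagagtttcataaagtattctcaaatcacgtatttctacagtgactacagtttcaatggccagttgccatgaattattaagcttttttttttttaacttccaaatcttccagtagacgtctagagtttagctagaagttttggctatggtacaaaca
Omd, chr13:49582212-49582461: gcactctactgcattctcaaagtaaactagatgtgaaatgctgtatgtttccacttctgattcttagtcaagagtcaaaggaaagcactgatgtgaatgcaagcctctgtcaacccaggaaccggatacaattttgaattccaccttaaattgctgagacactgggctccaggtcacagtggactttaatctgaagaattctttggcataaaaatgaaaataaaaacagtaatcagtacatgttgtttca
Ogn, chr13:49607765-49608014: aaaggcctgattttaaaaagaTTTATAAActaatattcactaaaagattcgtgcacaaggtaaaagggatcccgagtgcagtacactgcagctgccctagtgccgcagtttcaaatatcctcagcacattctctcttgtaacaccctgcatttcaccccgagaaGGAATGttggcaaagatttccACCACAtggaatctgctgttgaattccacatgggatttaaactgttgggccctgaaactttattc
The promoters differed widely in base composition. GC content was 78% in this Podn entry, above 98.1% of 32851 promoters of the same length, and 55.6% in Prelp, against a median of 52.4% over all. Of the neighbours, Ogn had 42% GC, Omd 38.4% and Aspn 30%, the last above only 1.61% of promoters. GC boxes were found 2 times in this Podn entry and 3 times in Bgn, and 32.7% of all promoters hold at least 1. A second Podn entry, not printed here, had 64% GC and 0 GC boxes. The TATA box was matched 2 times each in Aspn and Ogn, where the Ogn matches overlap on opposite strands, and 12.4% of all promoters hold it. Ogn also held 1 TEAD site (12.6% of all promoters) and 1 RUNX site (14.1%). Neither Prelp nor Omd held any of these 4 motifs, nor the E-box CANNTG (66.2% of all promoters) or the AP-1 site TGANTCA (6.75%), and no member entry held the AP-1 site. Matches may overlap, and a match describes letters in this window only.

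In PBS cells the group mean of Bgn per kilobase of transcript, the highest of the members, was 137 times that of Fmod, the lowest. On the scale of CPM per kilobase of the principal transcript, biglycan (Bgn) stood at 957 ± 121 in PBS cells (SD, n = 4), rank 38 among 17352 genes with an annotated length. Decorin (Dcn) followed at 599 ± 127. Osteoglycin (Ogn), a class III member also called mimecan, stood at 287 ± 30.8 and Prelp, a member with a basic end that binds heparin, at 242 ± 43.7. The PBS libraries of Ogn (247 to 315) and Prelp (198 to 301) overlapped on this scale, so their order does not exceed the spread. Lumican (Lum) stood at 135 ± 18.3, osteoadherin (Omd) at 40.3 ± 6.34, asporin (Aspn), a class I member that lacks the attachment site for a sugar chain, at 27.8 ± 10.3, podocan (Podn) at 13.4 ± 3.41 and fibromodulin (Fmod) at 7.01 ± 5.37. The ranges of Omd and Aspn over the PBS libraries overlapped, as did those of Podn and Fmod, while the range of Lum lay above that of Omd. Within every single PBS library, though, Omd was above Aspn and Podn above Fmod on this scale. The order depends on the length used: with all exons of a gene merged, Dcn fell to 180 and Bgn to 380 CPM per kilobase, which puts Dcn below Ogn and Prelp and leaves Bgn first, at 57.4 times Fmod.

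**Figure D1:**
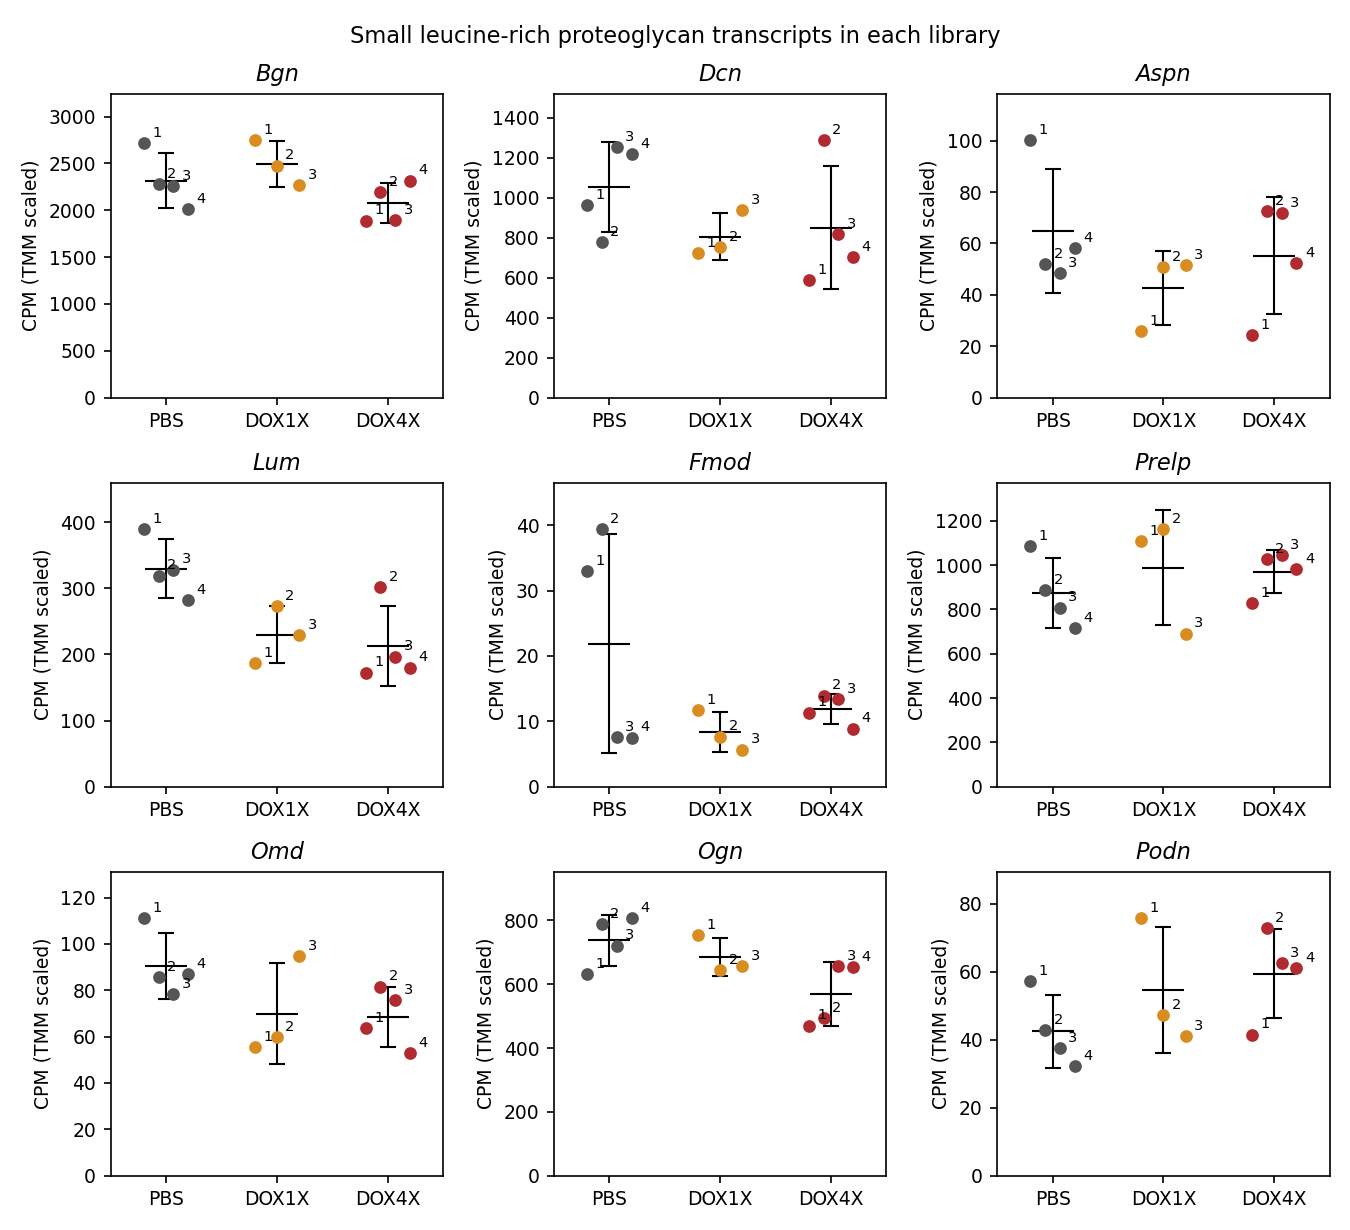
Each panel shows 1 member, with TMM-scaled CPM per library on the vertical axis from 0 and the groups PBS (4 mice), DOX1X (3) and DOX4X (4) on the horizontal axis. Points are numbered by replicate, bars are group means and whiskers are SDs. The 3 DOX1X points of Lum lie below all 4 PBS points, and the 2 high Fmod points are PBS 1 and PBS 2.

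After 4 doses of doxorubicin no member passed an adjusted p of 0.05 in edgeR's quasi-likelihood test over all genes, and Lum and Ogn, both lower, had the smallest p of the 9. The 9 members summed to 5530 ± 399 CPM in PBS (n = 4), 5379 ± 368 in DOX1X (n = 3) and 4872 ± 601 in DOX4X (n = 4). In DOX4X against PBS 0 of 9 members were called, where 0.146% of all genes tested were called in either direction, every one of them lower. At an unadjusted p under 0.05, 2 of 9 members were lower (Lum and Ogn) and 0 higher, against 7.85% and 6.0% of all genes. DESeq2 called 1 of 9, Lum, where it called 4.02% of the genes to which it gave an adjusted p, and limma-voom with quality weights called 0 of 9 and 0.314% of all genes. The fitted log2 fold change was below 0 in 7 of 9 members, with a median of −0.31 against 0.01 over all genes. No member had groups that did not overlap, a state reached by 4.68% of all genes in the lower and 3.17% in the higher direction.

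Biglycan, the most abundant member, differed little between groups. Its level was 2716, 2276, 2259 and 2013 CPM in PBS, 2751, 2475 and 2264 in DOX1X, and 1889, 2193, 1898 and 2316 in DOX4X. All groups overlapped, and the log2 fold change was −0.16 in DOX4X against PBS (95% interval −0.40 to 0.09, adjusted p = 0.574, edgeR) and 0.11 in DOX1X against PBS (−0.16 to 0.37, adjusted p = 0.852). DOX4X was lower than DOX1X by 0.27 (SE 0.12, unadjusted p = 0.0473, adjusted p = 1.00, edgeR). Its SD within groups was 0.16 on the log2 scale, less than the 0.25 that is the median of all genes.

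Decorin, the other abundant class I member, was more variable. It measured 962, 778, 1252 and 1217 CPM in PBS, 723, 753 and 939 in DOX1X, and 590, 1289, 817 and 704 in DOX4X. The highest of all 11 libraries was DOX4X 2 and the lowest DOX4X 1, while DOX1X 1 and 2 lay below all PBS libraries and DOX1X 3 among them. The log2 fold change was −0.31 (−0.80 to 0.19, adjusted p = 0.595, edgeR) in DOX4X and −0.39 (−0.93 to 0.15, adjusted p = 0.751) in DOX1X, each against PBS. Asporin, the third class I member, was at 100.3, 51.9, 48.5 and 58.2 CPM in PBS, 25.9, 50.8 and 51.4 in DOX1X, and 24.3, 72.5, 71.9 and 52.4 in DOX4X. Its low values were in DOX1X 1 and DOX4X 1, the rest lay between 48.5 and 100.3, and its fold changes were −0.23 (−0.98 to 0.53) in DOX4X and −0.60 (−1.43 to 0.23) in DOX1X against PBS. With the blood cell marker score as a covariate they were 0.37 and 0.062, so both directions turned. The score itself averaged −0.53 ± 0.38 in PBS (SD, n = 4), 0.37 ± 0.60 in DOX1X (n = 3) and 0.25 ± 0.50 in DOX4X (n = 4). Its means thus differed with treatment, so a fit with it can take up part of a group difference. Among its genes was Ebf1, which stromal cells also express. The DOX4X fold change of Aspn was also above 0 without PBS 1 (0.059) or DOX4X 1 (0.029), and −0.66 in a fit with flow cell.

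Lumican, a class II member that binds collagen fibrils, was lower after both treatments before adjustment over all genes. Its level was 390, 319, 328 and 282 CPM in PBS. In DOX1X it was 187, 273 and 229 CPM, and in DOX4X it was 173, 302, 197 and 180 CPM. All 3 DOX1X libraries lay below all 4 PBS libraries, and 3 of 4 DOX4X libraries did, with DOX4X 2 above PBS 4 only. The log2 fold change in DOX4X against PBS was −0.63 (SE 0.18, 95% interval −1.03 to −0.23, unadjusted p = 0.00478, adjusted p = 0.183, edgeR). DESeq2 gave −0.63 with an adjusted p of 0.0298, and limma-voom −0.65 with 0.148. The DOX1X value against PBS was −0.52 (SE 0.20, −0.96 to −0.09, unadjusted p = 0.0218, adjusted p = 0.615). Both doxorubicin groups share the same 4 PBS libraries, so these 2 values are not independent. The 2 doxorubicin groups differed from each other by −0.11 (−0.54 to 0.32). Lum was the 1 member with non-overlapping groups in DOX1X against PBS, where 3.82% of all genes were so in the lower and 3.18% in the higher direction.

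Several values bear on Lum. Without PBS 4 the log2 fold changes were −0.70 (unadjusted p = 0.00419, adjusted p = 0.149, edgeR) in DOX4X and −0.59 (adjusted p = 0.369) in DOX1X, and the DOX4X libraries no longer overlapped the remaining PBS libraries, as for 8.73% of all genes in the lower direction. A model that also fitted the flow cell, in which DOX1X 3 is the 1 library that links the flow cells within a treatment, gave −0.63 for DOX4X (adjusted p = 0.647, edgeR). Within the first flow cell, DOX1X 1 and 2 against PBS gave −0.52 (unadjusted p = 0.0210, adjusted p = 0.540). Over all settings tried the DOX4X fold change ran from −0.84 to −0.53. With a score of blood cell markers as a covariate it was −0.65 (unadjusted p = 0.0245, edgeR). The sum of 10 osteoblast lineage markers was 13450 to 19365 CPM in PBS, 10757 to 12805 in DOX1X and 7138 to 9503 in DOX4X. Most of this sum was Spp1, at 1625 to 9642 CPM over the libraries, and Ibsp, at 3699 to 8003. In DOX4X against PBS 9 of the 10 markers were lower, 5 of them at an unadjusted p under 0.05 (7.85% of all genes). EdgeR called 1, Spp1 (0.146% of all genes), DESeq2 4 (4.02% of its genes) and limma-voom 1 (0.314% of all genes). Groups did not overlap for 3 of the 10 markers (4.68% of all genes), while those of Sp7, Alpl, Bglap and Phex overlapped. The part of this list in the lower Lum was not tested.

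Fibromodulin, a class II keratan sulfate proteoglycan, was the least abundant and most variable member. It measured 33.0, 39.4, 7.54 and 7.51 CPM in PBS, 11.7, 7.67 and 5.65 in DOX1X, and 11.3, 13.9, 13.4 and 8.88 in DOX4X. PBS 1 and PBS 2 stood above the other 9 libraries, and PBS 3 and 4 lay within the range of the treated ones. The DOX1X fold change was −1.39 (95% interval −2.60 to −0.18, unadjusted p = 0.0277, adjusted p = 0.643, edgeR), and the DOX4X fold change −0.88 (−1.96 to 0.20, adjusted p = 0.461). Leaving out 1 library at a time moved the DOX4X fold change between −1.16 and −0.43, the first of these without PBS 4 (unadjusted p = 0.0236, edgeR), and the fit with flow cell gave −0.10. The DOX1X value ran from −1.72 without DOX1X 1 to −0.94 without PBS 2, was −1.67 without PBS 4 (unadjusted p = 0.00588, adjusted p = 0.329, edgeR), and was −0.91 with limma-voom. PBS 1 and 2 were also the highest PBS libraries for 3 of 10 osteoblast lineage markers (Sp7, Alpl and Bglap) and for 4 of 7 tendon and synovium markers (Scx, Tnmd, Thbs4 and Comp). Of the PBS libraries, PBS 3 was instead the highest for Ibsp, Spp1 and Dmp1, and narrowly for Runx2 (206 CPM against 203 in PBS 1). The share of all genes with PBS 1 and 2 highest was not counted, so the counts of markers are a description only. The summed level of the tendon and synovium list was 101 to 282 CPM in PBS, 139 to 167 in DOX1X and 128 to 179 in DOX4X. Of its genes Scx, Thbs4 and Tnmd were at 0.14 to 0.70, 0 to 0.91 and 1.10 to 3.67 CPM and Comp at 55.3 to 234.5. The part of these cells in the Fmod values was not tested.

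Osteoadherin (Omd), a keratan sulfate proteoglycan of bone, was at 111, 85.8, 78.5 and 86.9 CPM in PBS, 55.4, 59.7 and 94.8 in DOX1X, and 63.5, 81.5, 75.8 and 52.7 in DOX4X. PBS 3 was below DOX1X 3 and DOX4X 2, so the groups overlapped, and 3 of 4 DOX4X and 2 of 3 DOX1X libraries were below all PBS libraries. The log2 fold change was −0.41 (−0.81 to 0.00, unadjusted p = 0.0501, adjusted p = 0.361, edgeR) in DOX4X and −0.37 (−0.81 to 0.07, adjusted p = 0.731) in DOX1X. When flow cell was fitted too, the DOX4X value became −1.13 (unadjusted p = 0.00206, adjusted p = 0.271, edgeR). Within the first flow cell, DOX1X against PBS gave −0.66 (unadjusted p = 0.00220, adjusted p = 0.326, edgeR). With the blood cell marker score as a covariate, whose means also differed between groups, the DOX4X fold change of Omd was −0.12.

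Prelp, the class II member that also binds heparan sulfate, and podocan, a class V member, had fitted values above 0 after both treatments. Prelp was at 1087, 888, 808 and 716 CPM in PBS, 1109, 1164 and 691 in DOX1X, and 829, 1028, 1045 and 983 in DOX4X. The groups overlapped widely, with a log2 fold change of 0.15 (−0.22 to 0.52, adjusted p = 0.757, edgeR) in DOX4X and 0.18 (−0.22 to 0.57, adjusted p = 0.839) in DOX1X. Podn was at 57.3, 42.7, 37.6 and 32.2 CPM in PBS, 75.9, 47.2 and 41.1 in DOX1X, and 41.5, 72.8, 62.5 and 61.0 in DOX4X. DOX4X 2, 3 and 4 and DOX1X 1 were above all PBS libraries, while the others lay within the PBS range. The Podn fold change was 0.49 (−0.02 to 0.99, unadjusted p = 0.0576, adjusted p = 0.381, edgeR) in DOX4X and 0.37 (−0.17 to 0.91, adjusted p = 0.761) in DOX1X. Without PBS 4 the DOX4X values were 0.07 for Prelp and 0.37 for Podn. The fit with flow cell gave 0.87 for Prelp (unadjusted p = 0.00622, adjusted p = 0.333, edgeR) and 1.07 for Podn (unadjusted p = 0.0353, adjusted p = 0.478).

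Osteoglycin was lower in DOX4X before adjustment over all genes and near the PBS level in DOX1X. It measured 633, 788, 721 and 808 CPM in PBS, 753, 644 and 657 in DOX1X, and 471, 494, 658 and 653 in DOX4X. DOX4X 1 and 2 lay below every other library, and DOX4X 3 and 4 were above PBS 1. The log2 fold change was −0.37 (SE 0.13, 95% interval −0.65 to −0.10, unadjusted p = 0.0126, adjusted p = 0.238, edgeR) in DOX4X against PBS. In DOX1X against PBS it was −0.11 (−0.41 to 0.19, adjusted p = 0.871), and DOX4X against DOX1X gave −0.27 (−0.57 to 0.03, unadjusted p = 0.0747). Without PBS 4 the DOX4X value was −0.33 (adjusted p = 0.293, edgeR), and the fit with flow cell gave −0.29. For the members not covered above, the DOX4X values without PBS 4 were −0.22 for Bgn, −0.23 for Dcn, −0.43 for Omd and −0.28 for Aspn.

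**Figure D2:**
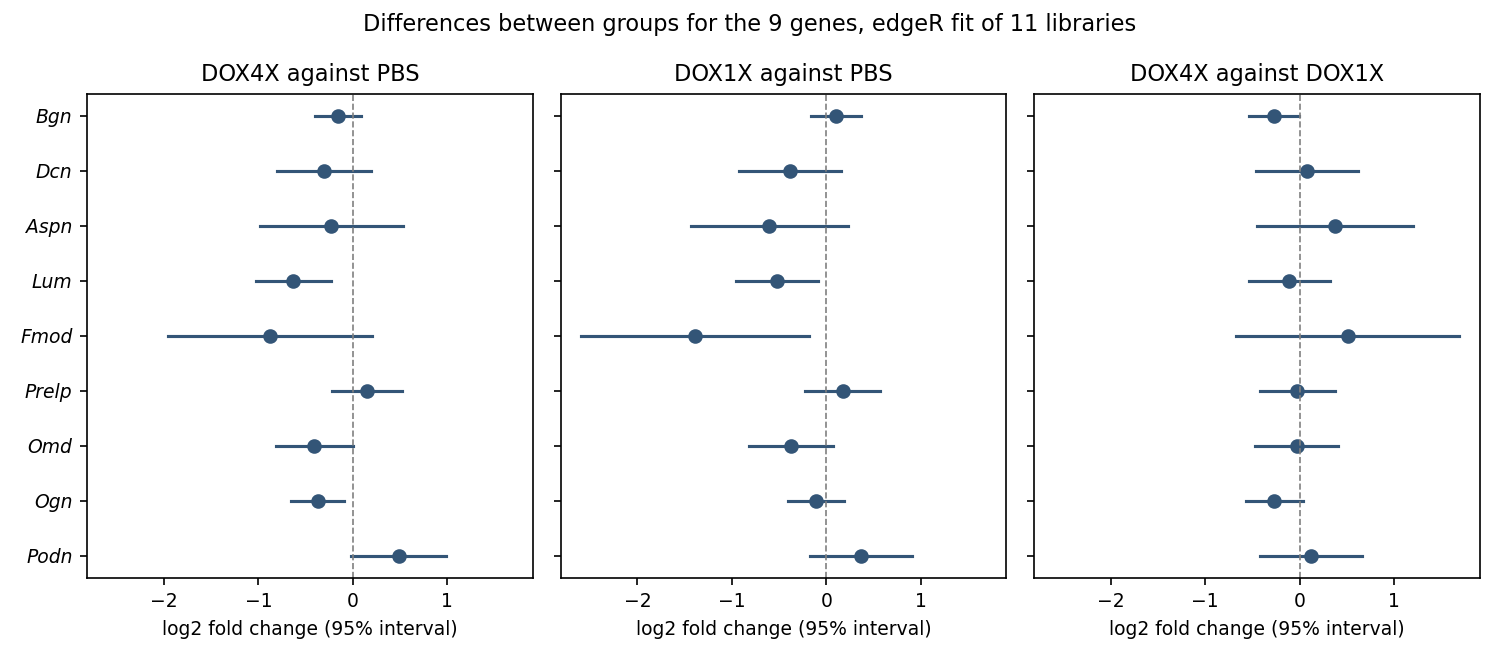
Log2 fold changes of the 9 members (horizontal axis) with 95% intervals as lines, 1 row for each member and 1 panel for each comparison. In DOX4X against PBS, Lum (−0.63, interval −1.03 to −0.23) and Ogn (−0.37, −0.65 to −0.10) have intervals that end below 0.

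The comparisons of DOX1X with PBS and of the 2 doxorubicin groups called no member. In DOX1X against PBS 0 of 9 were called (0.00561% of all genes), and 2 of 9 were lower (Lum and Fmod) and 0 higher at an unadjusted p under 0.05, against 3.74% and 3.42% of all genes. The fold change was below 0 in 6 of 9, with a median of −0.37. In DOX4X against DOX1X 0 of 9 were called (0.00561%). At an unadjusted p under 0.05, 1 of 9 was lower there (Bgn) and 0 higher, against 2.13% and 2.23% of all genes. The median of the 9 was −0.02, and 0 of 9 had groups that did not overlap, against 2.79% lower and 3.19% higher over all genes.

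Ratios of 2 members within a library, which do not depend on library size or scaling, separated the treated from the control libraries for Lum against Prelp and against Podn. The pairs described here were picked after their values were seen, so they carry no test. The ratio of Lum to Prelp counts was 0.359, 0.359, 0.406 and 0.394 in PBS. It was 0.168, 0.234 and 0.331 in DOX1X and 0.208, 0.294, 0.188 and 0.183 in DOX4X. Every treated library had a lower Lum to Prelp ratio than every control. The ratio of Lum to Podn was 6.80, 7.47, 8.73 and 8.76 in PBS, 2.46, 5.78 and 5.57 in DOX1X, and 4.16, 4.15, 3.15 and 2.95 in DOX4X, again with all 7 treated libraries below all 4 controls. The ratio of Bgn to Lum was 6.88 to 7.14 in the 4 PBS libraries, the narrowest range of the 3 groups, and 9.07 to 14.7 in DOX1X and 7.26 to 12.9 in DOX4X. By contrast, the ratio of Dcn to Lum, 2 neighbouring genes, overlapped between groups and ran from 2.44 to 4.32 over all libraries.

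Among all 36 pairs of members, 8 had ratios that did not overlap between DOX4X and PBS, and 8.89% of the ratios of any member to any other gene did so. The 8 pairs were Bgn with Lum, Prelp and Podn, Lum with Prelp and Podn, Omd with Prelp and Podn, and Aspn with Podn. Between DOX1X and PBS, 4 of 36 pairs did not overlap (9.69% of all such ratios), namely Bgn with Lum, Lum with Prelp and Podn, and Fmod with Podn. In DOX4X against DOX1X it was 0 of 36 (5.08%), and so 0 of the 8 ratios of Lum, where 2.55% of its ratios to any other gene did not overlap. Without PBS 4 the counts were again 8 and 4, where 13.6% and 15.4% of the ratios of any member to any other gene did not overlap. Lum itself had 3 of its 8 ratios without overlap in each of the 2 comparisons with PBS, where 24.6% of the ratios of Lum to any other gene were so in DOX4X and 34.8% in DOX1X. The pairs share members and the same PBS libraries, so the counts are not independent.

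**Figure D3:**
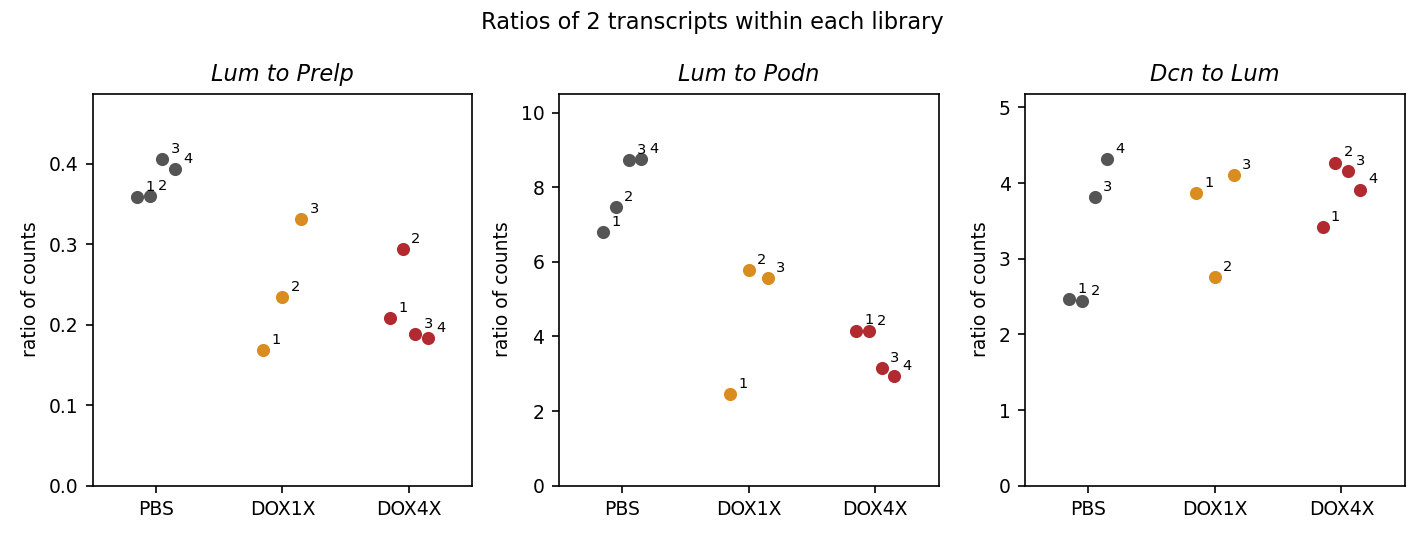
Ratios of 2 members' counts within each library (vertical axis) for the groups on the horizontal axis, with points numbered by replicate. Lum to Prelp (0.359 to 0.406 in PBS) and Lum to Podn (6.80 to 8.76 in PBS) lie above every treated library, while Dcn to Lum overlaps between groups.

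Members differed in how they varied together over the 11 libraries. Across libraries, and as a description that includes the group differences, the log2 CPM of Prelp and Podn had a Pearson correlation of 0.78, which was also 0.78 after group means were removed. Lum correlated with Omd at 0.72, with Dcn at 0.68 and with Aspn at 0.65, and Omd with Aspn at 0.66. After group means were removed these were 0.51, 0.56, 0.70 and 0.61. Of 36 pairs, 7 were above 0.5, 11 were below 0, and the median was 0.20. Bgn joined Podn (0.39, or 0.83 within groups) and Prelp (0.49, or 0.72 within groups) once group means were removed. Fmod did so as well, with Podn (0.28, or 0.63 within groups), Prelp (0.39, or 0.62) and Bgn (0.23, or 0.51). Within groups 10 of the 36 pairs were above 0.5 and 11 below 0, with Lum and Ogn at −0.54. The points share library depth and cell composition, and the correlations carry no p.

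**Figure D4:**
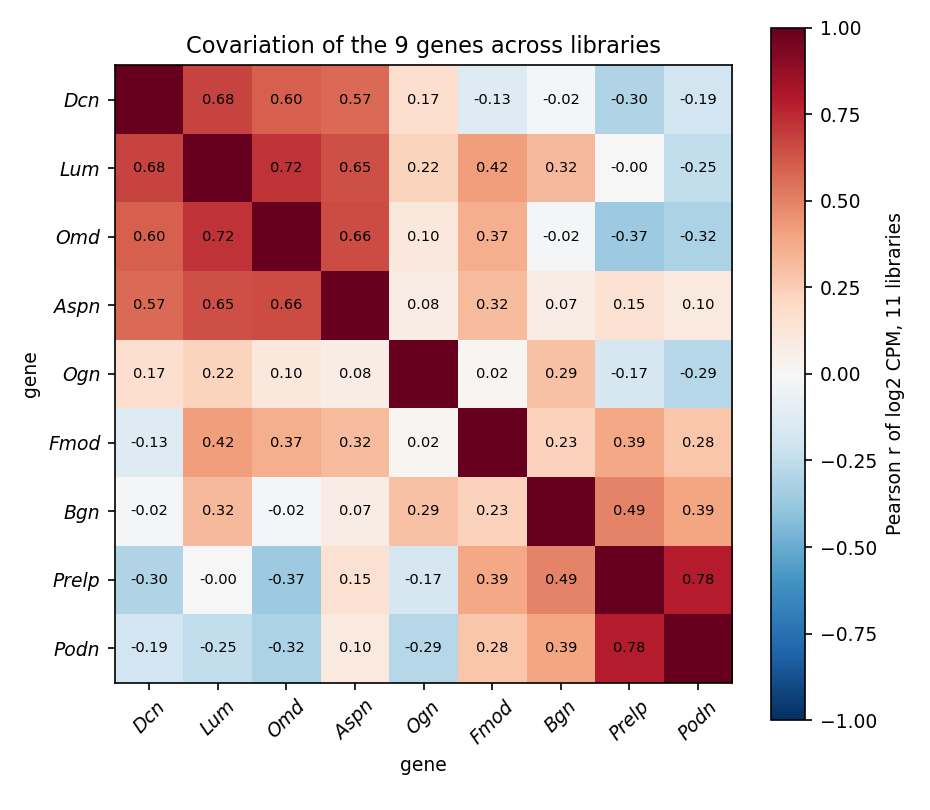
Pearson correlation of log2 CPM between members over the 11 libraries, as colour and number. Prelp and Podn (0.78) form 1 high cell, and Lum with Dcn, Omd and Aspn (0.65 to 0.72) another group of high cells.

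The genes outside the family whose levels followed each member most closely over the 11 libraries were named by that correlation alone, so a high value follows from the choice. For Lum they were Slc30a4 (0.91), Gabarapl1 and Spin1. For Ogn they were Magi2 (0.96), Rtl4 and Tspan6, and for Prelp they were Slc6a6 (0.93), Ehd3 and Fgfrl1. Podn was followed by Rras2 (0.92), Slc15a5 and Lfng, Aspn by Csrp1 (0.93), Wfdc1 and Rhoj, and Omd by Arl6 (0.93), Gm10241 and Gm26779. Bgn was followed by Wwox (0.91), Mxra8 and Cdk5rap3, Fmod by Etfdh (0.92), Slc36a2 and Anp32a, and Dcn by Dock2 (0.86), Pcdhgb5 and Gm34643. No gene appeared for more than 1 member.

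No relative of the 9 members was called by edgeR in DOX4X against PBS, while DESeq2 called 1, Optc (4.02% of its genes). Of 9 further leucine-rich proteoglycans and relatives 6 could be tested, and 3 were lower, with a median of 0.07 and 0 called. Podnl1, a podocan relative, was at 148 CPM in DOX4X and 192 in PBS (log2 fold change −0.37, SE 0.12, adjusted p = 0.205, edgeR). Optc, opticin, was at 1.86 against 0.84 CPM (1.15, SE 0.31, adjusted p = 0.155). The group means of Optc were 0.84 to 1.86 CPM, far below those of Prelp, the gene next to it.

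Of the enzymes that build the sugar chains edgeR called 0, while DESeq2, which called 4.02% of its genes, called Pxylp1, Fam20b, Chst5 and Fut8, each lower in DOX4X against PBS. Limma-voom called 1 of them, Chst5 (0.314% of all genes). Of 7 enzymes for the linkage tetrasaccharide, the short bridge that joins chain to core protein, 5 were lower in DOX4X against PBS, with a median of −0.17. At an unadjusted p under 0.05, 2 were lower, where 7.85% of all genes were. They were Pxylp1 (−0.30, SE 0.09, adjusted p = 0.178, edgeR) and Fam20b (−0.27, SE 0.08, adjusted p = 0.186). Of 16 enzymes of chondroitin and dermatan sulfate, 12 were lower, with a median of −0.17. Of these, 4 were lower at an unadjusted p under 0.05 (7.85% of all genes). They included Chsy3, a chain-lengthening enzyme, at −0.46 (SE 0.16, adjusted p = 0.241), and Dse, which makes dermatan sulfate, at −0.19 (SE 0.07, adjusted p = 0.251). Of 10 enzymes of keratan sulfate and tyrosine sulfation 5 were lower, with a median of 0.00. Of these, 2 were lower at an unadjusted p under 0.05 (7.85% of all genes). There, Chst5 stood at 10.2 CPM against 18.5 (−0.85, SE 0.16, adjusted p = 0.0829) and Fut8 at −0.32 (SE 0.08, adjusted p = 0.138).

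Among the collagens that the proteoglycans bind and the proteases that act on matrix, 2 proteases fell in DOX4X against PBS, Mmp13 and Mmp9. Of 12 fibrillar collagens and partners 11 were lower, with a median of −0.52, 7 were lower at an unadjusted p under 0.05 (7.85% of all genes), 0 were called by edgeR (0.146%) and 5 by DESeq2 (4.02%). Col6a2 was at 757 CPM against 1188 in PBS (−0.65, SE 0.13, adjusted p = 0.104, edgeR) and Col6a1 at 1422 against 2087 (−0.55, SE 0.13, adjusted p = 0.122). Of 14 proteases 13 were lower, with a median of −0.39, and 2 were called. Mmp13, a collagenase, fell from 3770 to 1561 CPM (−1.27, SE 0.18, adjusted p = 0.0428), and Mmp9, a gelatinase, fell from 75.5 to 20.01 CPM (−1.92, SE 0.27, adjusted p = 0.0428). Of 20 other settings, Mmp9 was called in 9 and Mmp13 in 7, with the calls lost when flow cell was fitted (adjusted p = 0.463 for Mmp9 and 0.119 for Mmp13, edgeR) or any 1 DOX4X library was left out (0.0791 to 0.143 for Mmp9 and 0.0728 to 0.143 for Mmp13). The log2 fold changes were −1.16 for Mmp9 and −1.74 for Mmp13 when flow cell was fitted, and −1.96 to −1.86 and −1.37 to −1.15 without 1 DOX4X library. Of 21 ligands and receptors tested 13 were lower, with a median of −0.04. At an unadjusted p under 0.05, 8 were lower and 3 higher, against 7.85% and 6.0% of all genes. EdgeR called 0 of them (0.146% of all genes) and DESeq2 4 (4.02% of its genes). The receptors Tgfbr1 (−0.42, SE 0.10, adjusted p = 0.138) and Tgfbr3 (−0.43, SE 0.11, adjusted p = 0.139) of transforming growth factor beta had the smallest p. For DOX1X against PBS the medians of these lists were −0.18 for the collagens, −0.18 for the proteases and −0.08 for the ligands and receptors. In that comparison 1 of 12, 5 of 14 and 3 of 21 genes were lower at an unadjusted p under 0.05, against 3.74% of all genes. There edgeR called 0, and DESeq2 called 2 proteases (0.312% of its genes).

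Markers of other cells had summed levels whose DOX4X ranges overlapped the PBS ranges in each list given here except monocytes and macrophages. EdgeR called 0 of these genes in DOX4X or DOX1X against PBS. Monocyte and macrophage markers (11 genes) summed to 78.5 to 111 CPM in PBS, 97.6 to 189 in DOX1X and 118 to 193 in DOX4X. Of the 10 tested, 2 were higher in DOX4X at an unadjusted p under 0.05 (6.0% of all genes). The sum of 10 neutrophil markers was 162 to 574, 217 to 818 and 234 to 948. At that threshold 0 of them were higher in DOX4X and 6 in DOX1X (3.42% of all genes). The summed level of 10 endothelial markers was 132 to 422 CPM in PBS, 173 to 275 in DOX1X and 378 to 665 in DOX4X. All 10 were below PBS in DOX1X and above it in DOX4X. Of them, 0 were lower in DOX1X (3.74% of all genes) and 5 higher in DOX4X (6.0%) at an unadjusted p under 0.05. In DOX4X against DOX1X all 10 were higher at that threshold (2.23% of all genes). There 9 of the 10 had groups that did not overlap (3.19% of all genes), and edgeR called 0. The sum of 10 erythroid markers was 192 to 530, 273 to 744 and 385 to 986, and that of 9 B lineage markers, without Ebf1 (which stromal cells also express), was 35.9 to 81.2, 71.4 to 108 and 79.9 to 222. At an unadjusted p under 0.05, 8 of 10 erythroid and 7 of 10 B lineage markers were higher in DOX4X, where 6.0% of all genes were. DESeq2 called 2 and 5 of them (4.02% of its genes). The sum of 13 fibroblast and periosteum markers was 562 to 1098 in PBS, 588 to 735 in DOX1X and 469 to 590 in DOX4X. In DOX4X 3 of them were lower (7.85% of all genes) and 1 higher (6.0%) at an unadjusted p under 0.05, and DESeq2 called 3 (4.02% of its genes). No marker of these lists was at 0 in all 11 libraries. The sum of the stromal identity list was 65698 to 82228 CPM, most of it Cxcl12 at 46059 to 59804. Of its 11 genes 5 were lower in DOX4X against PBS and 0 called, with Pdgfra at −0.31 (adjusted p = 0.269, edgeR; its groups did not overlap) and Lepr at −0.36 (adjusted p = 0.360) lower at an unadjusted p under 0.05. Their part in the levels of the members was not tested, apart from the fits with the blood cell score given above.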

How the data were processed

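The deposited table holds raw counts per gene from SMART-Seq v4 Plus libraries, a kit that does not mark strand, as the authors deposited them. The aligner STAR 2.7.9a, the counter featureCounts 2.0.1, the trimmer Trim Galore 0.6.6 and the build GRCm39 are named per the submitters' processing notes; strand and multi-mapping settings: not given in the sources used here. Groups came from the treatment labels, and the titles number the libraries as biological replicates (PBS 4 is numbered 1 in its own title). Libraries differed by far more than sampling noise (27.7 to 102 chi-square per gene over 55 pairs), so none was counted as a duplicate. Counts were filtered with filterByExpr, scaled by TMM and fitted with edgeR 4.0.16 (R 4.3.3) quasi-likelihood over all 11 libraries, with Benjamini-Hochberg adjustment over all 17838 genes tested. DESeq2 1.42.0 and voom in limma 3.58.1 were alternatives, as were other scalings, filters, a replicate block, a flow cell term, a blood cell marker score and leaving out each library. Log2 fold changes have 95% intervals.

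Levels per kilobase used GENCODE M21 (GRCm38) principal transcripts; merged exons were an alternative chosen after seeing the data, as was leaving PBS 4 out of the ratios and of the overlap shares. Prelp shares 350 exon bases with an antisense gene, Gm15851, and Aspn 7 with Cenpp, whose reads cannot be separated without strand. The members and lists were chosen with earlier results of these data known. Named genes were all members, called genes of the related lists, the 2 smallest p of each list in DOX4X against PBS, and the 3 most correlated genes of each member. The test script was checked on simulated data. Replicate numbers were not used to pair libraries in the main fit.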

Additional observations from a re-analysis of the deposited data

How the results depend on the processing

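Over all genes, the count called in DOX4X against PBS was 26; it was 590 with DESeq2 (178 higher, 412 lower), 56 with limma-voom, 1 with only the compared groups fitted, 10 with the replicate block, 6 with a flow cell term and 0 with the blood cell marker score (1939 at an unadjusted p under 0.05), and 0 to 80 leaving out 1 library (0 without DOX4X 1, 2 or 3, with 1914, 1725 and 2352 at an unadjusted p under 0.05, 80 without PBS 4, 47 without DOX1X 3). In DOX1X against PBS it was 1; 49 with DESeq2, 6 with the replicate block, 5 within the first flow cell, and 1 to 2 leaving out 1 library. In DOX4X against DOX1X it was 1; 27 with DESeq2, 2 with the replicate block, and 1 to 2 leaving out 1 library. Of the members, DESeq2 called 1 (Lum) in DOX4X against PBS. Same-numbered libraries deviated together at r of −0.12 to 0.08 (DOX4X and PBS), −0.03 to 0.10 (DOX1X and PBS) and 0.08 to 0.35 (DOX4X and DOX1X). Some libraries, but not all, correlated best with their own number. Groups of 3 or 4 libraries cannot settle whether the numbers pair them, and the main fit used no pairing.

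Directions reversed for some log2 fold changes. In DOX4X against PBS, Bgn was 0.047 with a flow cell term, and Aspn 0.37 with the blood cell marker score and −0.38 to 0.059 leaving out 1 library (0.059 without PBS 1, 0.029 without DOX4X 1). In DOX1X against PBS, Aspn (−0.60) was 0.062 with the blood cell marker score. In DOX4X against DOX1X, limma-voom gave Omd 0.10 and Podn −0.033, and the replicate block gave Omd 0.044 and Prelp 0.052. A flow cell term and the second flow cell alone both gave Dcn −0.14 and Prelp 0.49. Both fits set DOX4X against DOX1X 3, the 1 DOX1X library on that flow cell, so their equal values are not separate evidence. Leaving out 1 library gave Dcn −0.19 to 0.22, Lum −0.32 to 0.034 and Omd −0.18 to 0.25. It gave Podn −0.051 to 0.43 and Prelp −0.23 to 0.11. The cause was not tested.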
